A study of Mus musculus with 8 samples.

Results

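The tumour necrosis factor (TNF) superfamily comprises cytokine ligands and the receptors that bind them. Its members were taken as every gene whose mouse symbol begins with Tnfsf or Tnfrsf, together with Tnf, Lta, Ltb, Ltbr, Fas, Fasl, Cd40, Cd40lg, Cd27, Cd70, Eda, Edar, Eda2r and Ngfr. This gave 47 genes of the 41388 in the count tables: 18 ligands, 27 receptors, the non-coding transcript Tnfsf13os and the Tnfsf12 and Tnfsf13 readthrough gene Tnfsfm13. RNA of whole ear skin from adult wild-type C57Bl/6 mice was sequenced in 8 libraries. The MC903 group (4 mice) received calcipotriol, a vitamin D analog, on the skin at 1 nmol daily for 12 days, and the vehicle group (4 mice) received ethanol. The treatment is used to produce itchy, atopic dermatitis-like inflammation, and the comparison asks which genes differ in treated ear.

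Most TNF superfamily ligands are membrane proteins that assemble as trimers and can be shed by proteases, and their receptors carry cysteine-rich repeats outside the cell. Receptors without a death domain recruit TRAF adaptors and activate the transcription factor NF-kB, whereas receptors with a death domain can also start caspase-driven or necroptotic cell death. In skin, TNF drives keratinocyte and endothelial inflammation, the ectodysplasin branch directs hair follicle formation, and the costimulatory branch regulates T cells and antigen-presenting cells.

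The vitamin D receptor target Cyp24a1 checked the labels, at 3837 ± 403 CPM in MC903 skin and 18.8 ± 1.73 CPM in vehicle skin (SD, n = 4 each). Library totals ran from 12310466 to 16837221 counts, and 3 counts corresponded to 0.178 to 0.244 CPM, that is, counts scaled to a common library total. Vehicle replicate 2 stood apart in its salivary genes, of which Bpifa2 alone took 24.5% of its counts. The 9 salivary gland markers listed summed to 373880 CPM there, against 197 to 464 CPM in the other vehicle libraries. The part of salivary tissue in that library's member counts was not tested. Levels are CPM adjusted with TMM factors, which scale each library by the bulk of its genes, and are quoted for MC903 replicates 1 to 4 and vehicle replicates 1 to 4 in that order of number. Intervals cover counting error only. Of the 47 members, 41 had enough counts to be tested and 6 did not. A further limit is that 8 of the 41 reached the filter's minimum of 0.662 CPM in all MC903 libraries but not in all vehicle libraries (Lta, Ltb, Tnf, Tnfrsf14, Tnfrsf8, Tnfsf11, Tnfsf13b and Tnfsf14), so their inclusion favoured a rise, and none did so in the opposite direction.

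Among the 41 tested members, 20 were higher in MC903 skin, 7 were lower and 14 did not pass an adjusted p of 0.05 (edgeR quasi-likelihood test, Benjamini-Hochberg over 16105 genes). Over all genes tested, 21.3% were called higher and 20.2% lower. The corresponding shares among tested members were 48.8% and 17.1%. Changes of at least 2-fold were found for 14 members higher and 3 lower, against 9.39% and 7.66% of all genes tested. The median log2 fold change of the tested members was 0.69, against -0.03 over all genes tested. The values of the 4 MC903 libraries all lay above those of the 4 vehicle libraries for 20 tested members and all below for 7, against 19.8% and 18.9% of all genes tested. With vehicle replicate 2 left out, 21 members were higher and 6 lower.

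**Figure D1:**
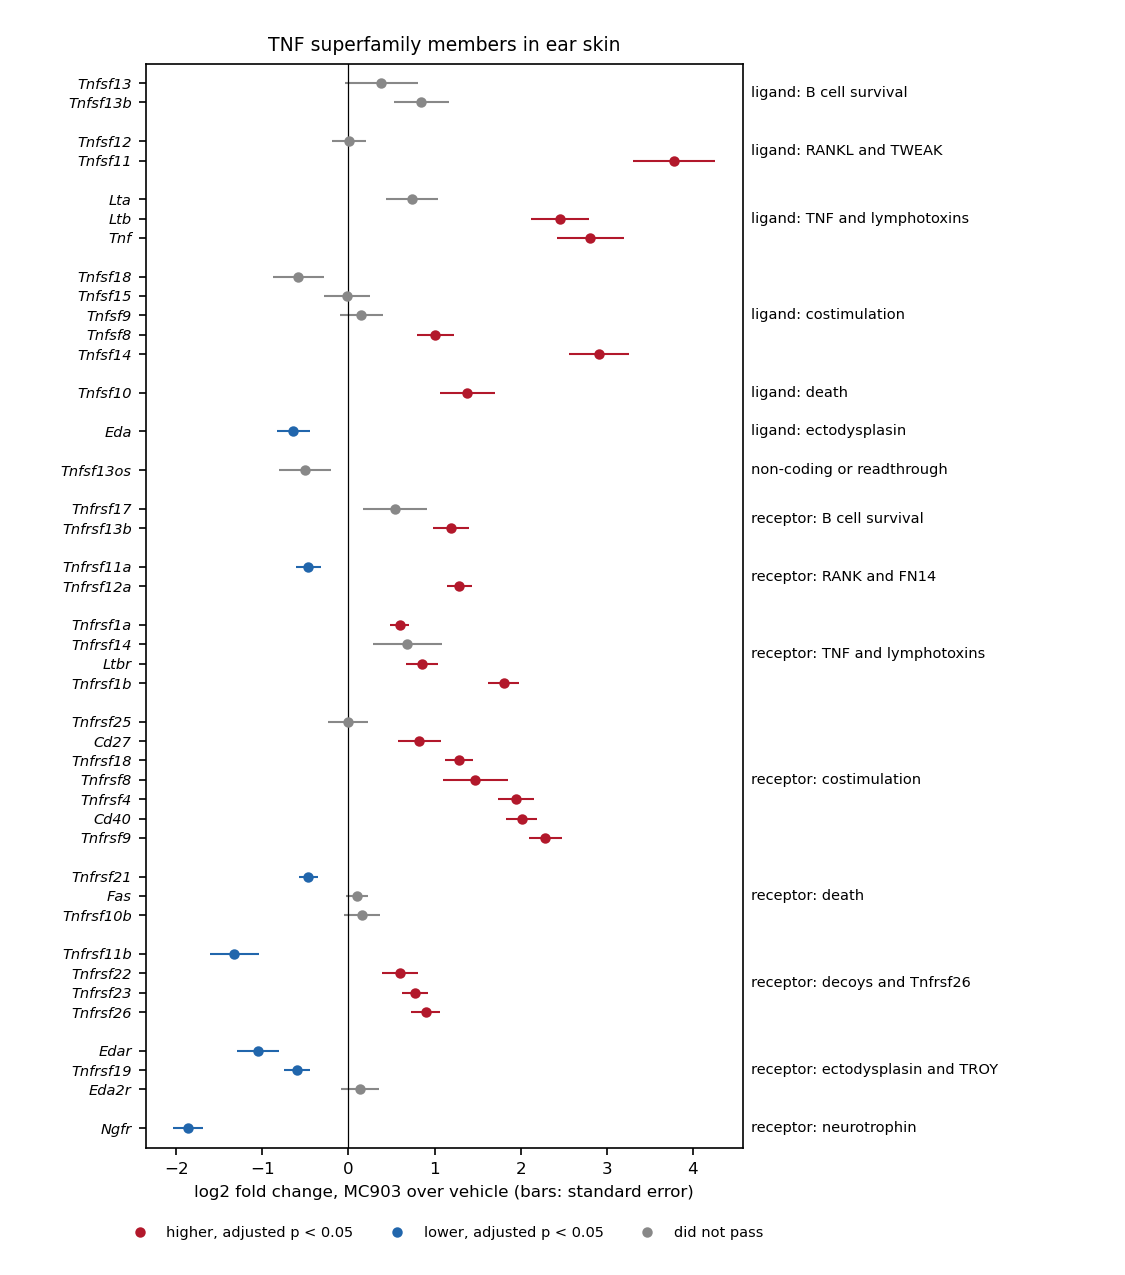
Log2 fold change (MC903 over vehicle, horizontal axis, with standard error) of the 41 tested members, one row each and grouped by role at the right; red marks higher, blue lower and grey not called at an adjusted p of 0.05. Tnfsf11 lies farthest right at 3.78 and Ngfr farthest left at -1.86.

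TNF and lymphotoxin beta, ligands made chiefly by leukocytes, were near the detection floor in vehicle skin and rose in MC903 skin. Tnf stood at 6.61, 6.83, 3.91 and 2.11 CPM in the MC903 libraries and at 0.884, 0.461, 0.628 and 0.75 CPM in the vehicle libraries. The lowest treated library still exceeded the highest vehicle library, and the treated values were spread widely. Its log2 fold change was 2.81 ± 0.39 (SE, adjusted p = 0.000205). Ltb, which forms heterotrimers with lymphotoxin alpha that act through Ltbr, stood at 1.62, 2.17, 1.79 and 1.54 CPM in MC903 skin and 0.177, 0.384, 0.229 and 0.5 CPM in vehicle skin. The groups did not overlap, and the log2 fold change was 2.45 ± 0.33 (adjusted p = 0.000182). Lta, which encodes lymphotoxin alpha, averaged 1.07 ± 0.0791 CPM in MC903 skin and 0.653 ± 0.241 CPM in vehicle skin (SD, n = 4 each), overlapped between groups and did not pass (0.74 ± 0.30, adjusted p = 0.0704). Without vehicle replicate 2 it did pass, at 0.98 with an adjusted p of 0.0291. In whole tissue, more cells of a type and more RNA per cell cannot be told apart. Beside these ligands, the 10 macrophage and monocyte markers listed were all higher, with a summed level of 1924 to 2891 CPM in MC903 skin and 823 to 998 CPM in vehicle skin, and all 5 testable neutrophil markers of 8 were higher. The neutrophil sum was 402 to 1413 CPM in MC903 skin and 33.1 to 113 CPM in vehicle skin. S100a8 and S100a9 made up most of it in MC903 skin, with means of 552 and 421 CPM. Of the markers not testable, Ly6g had 6 and 0 counts in MC903 and vehicle skin, Camp 12 and 13, and Ngp 49 and 10. MC903 replicate 4 had the lowest Tnf and the lowest neutrophil sum of the treated libraries. The part of these cells in the change of Tnf was not tested.

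Of the 4 receptors of this branch 3 were higher, against 21.3% of all genes tested. Tnfrsf1a, the widely expressed TNF receptor with a death domain, stood at 216, 199.8, 204 and 198 CPM in MC903 skin and 133, 138, 128 and 140.5 CPM in vehicle skin, so the groups were tight and separate. Its log2 fold change was 0.60 ± 0.11 (adjusted p = 0.00145), and the call was lost with library sizes alone (adjusted p = 0.0572). Tnfrsf1b, the inducible TNF receptor of leukocytes and endothelium, stood at 27.4, 26.2, 23.4 and 18.6 CPM in MC903 skin against 6.6, 8.84, 5.31 and 6.75 CPM in vehicle skin. Every treated library lay above every vehicle library, with a log2 fold change of 1.80 ± 0.18 (adjusted p = 2.33e-05). Per length, the ratio of Tnfrsf1b to Tnfrsf1a counts within a library was 0.0791 ± 0.0113 in MC903 skin and 0.0344 ± 0.00641 in vehicle skin (SD, n = 4 each). The ratio was chosen after both genes' values were seen, so it is a description, and its separation is no further result. Ltbr, the lymphotoxin beta receptor of stromal and myeloid cells, averaged 67.05 ± 19.5 CPM in MC903 skin and 37.1 ± 3.87 CPM in vehicle skin (0.85 ± 0.18, adjusted p = 0.00335). MC903 replicate 1 lay far above the others, and without it the log2 fold change was 0.63 (adjusted p = 0.00149). Tnfrsf14, the LIGHT receptor HVEM, had 1.13 ± 0.158 CPM in MC903 skin and 0.721 ± 0.439 CPM in vehicle skin and did not pass (adjusted p = 0.189).

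Of 8 costimulatory ligands 5 could be tested, and 2 of them rose, against 21.3% of all genes tested. Tnfsf14, which encodes LIGHT, a ligand of Ltbr and HVEM, stood at 3.64, 4.83, 3.11 and 2.03 CPM in MC903 skin and 0.412, 0.692, 0.286 and 0.437 CPM in vehicle skin. The groups lay well apart, with a log2 fold change of 2.91 ± 0.35 (adjusted p = 7.47e-05). Tnfsf8, the CD30 ligand, stood at 3.98, 4.42, 3.71 and 3.73 CPM in MC903 skin and 2.12, 2.07, 2.34 and 1.31 CPM in vehicle skin, without overlap (1.01 ± 0.22, adjusted p = 0.00349). Tnfsf9 (4-1BB ligand), Tnfsf15 (TL1A) and Tnfsf18 (GITR ligand) overlapped between the groups and did not pass, at log2 fold changes of 0.15 ± 0.25, -0.02 ± 0.27 and -0.58 ± 0.30. The OX40 ligand gene Tnfsf4 fell below the filter, with 6, 4, 4 and 2 counts in MC903 skin and 7, 5, 12 and 5 counts in vehicle skin, or 16 and 29 in all. Relative to the library totals scaled by their TMM factors, the ratio was 0.646 (exact interval at 95%, 0.328 to 1.23), so a difference was not detectable at this depth. Cd40lg, the CD40 ligand of activated helper T cells, had 28 and 3 counts in MC903 and vehicle skin, a ratio of 10.9 (3.38 to 56.2). Its single-library counts were 4, 13, 6 and 5 in MC903 skin and 1, 1, 0 and 1 in vehicle skin. Cd70, the CD27 ligand, had 6 and 2 counts, too few to show a difference.

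Of their 7 receptors 6 were higher, against 21.3% of all genes tested, and the difference between ligands and receptors was not tested. Tnfrsf9 (4-1BB), induced on activated T cells, stood at 10.4, 12.6, 11.7 and 10.5 CPM in MC903 skin and 2.12, 2.69, 2.8 and 1.62 CPM in vehicle skin. Values were tight within groups, with a log2 fold change of 2.29 ± 0.20 (adjusted p = 7.52e-06). Cd40, the receptor of B cells and antigen-presenting cells, stood at 10.1, 9.16, 9.48 and 6.65 CPM in MC903 skin and 2.12, 2.31, 2.23 and 2.12 CPM in vehicle skin (2.01 ± 0.18, adjusted p = 1.18e-05). Tnfrsf4 (OX40), a receptor of activated and regulatory T cells, stood at 48.04, 33.9, 36.6 and 26.4 CPM in MC903 skin and 7.95, 10.5, 7.48 and 11.7 CPM in vehicle skin. All treated libraries were above all vehicle libraries (1.95 ± 0.21, adjusted p = 3.45e-05). Its neighbour Tnfrsf18 (GITR) stood at 64.3, 38.3, 43.3 and 46.2 CPM in MC903 skin and 18.7, 22.4, 19.7 and 18.1 CPM in vehicle skin (1.29 ± 0.17, adjusted p = 0.000121). Tnfrsf8 (CD30) stood at 0.81, 0.833, 0.994 and 0.73 CPM in MC903 skin and 0.471, 0.307, 0.286 and 0.125 CPM in vehicle skin. Both groups were low and did not overlap (1.47 ± 0.37, adjusted p = 0.00874). Cd27, a receptor of lymphocytes, averaged 3.05 ± 0.654 CPM in MC903 skin and 1.73 ± 0.378 CPM in vehicle skin (0.82 ± 0.24, adjusted p = 0.0191), which did not pass when vehicle replicate 3 was left out (adjusted p = 0.0559). Tnfrsf25 (DR3), the receptor of TL1A, did not pass (-0.01 ± 0.23). Of 10 T cell markers 7 were higher and none lower, with a summed level of 122 to 162 CPM in MC903 skin and 67.6 to 94.1 CPM in vehicle skin, and Cd3e, Cd3g and Cd247 did not pass. Of 5 regulatory T cell markers 3 were higher, among them Foxp3 (3.05), and Ikzf2 (-0.50) and Ikzf4 (-1.12) were lower. Their sum was 75.8 to 111 CPM in MC903 skin and 106 to 123 CPM in vehicle skin, led by Ikzf2. The 10 dendritic and Langerhans cell markers, of which 4 were higher, summed to 279 to 349 CPM in MC903 skin and 169 to 201 CPM in vehicle skin. The part of these cells in the receptor changes was not tested.

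**Figure D2:**
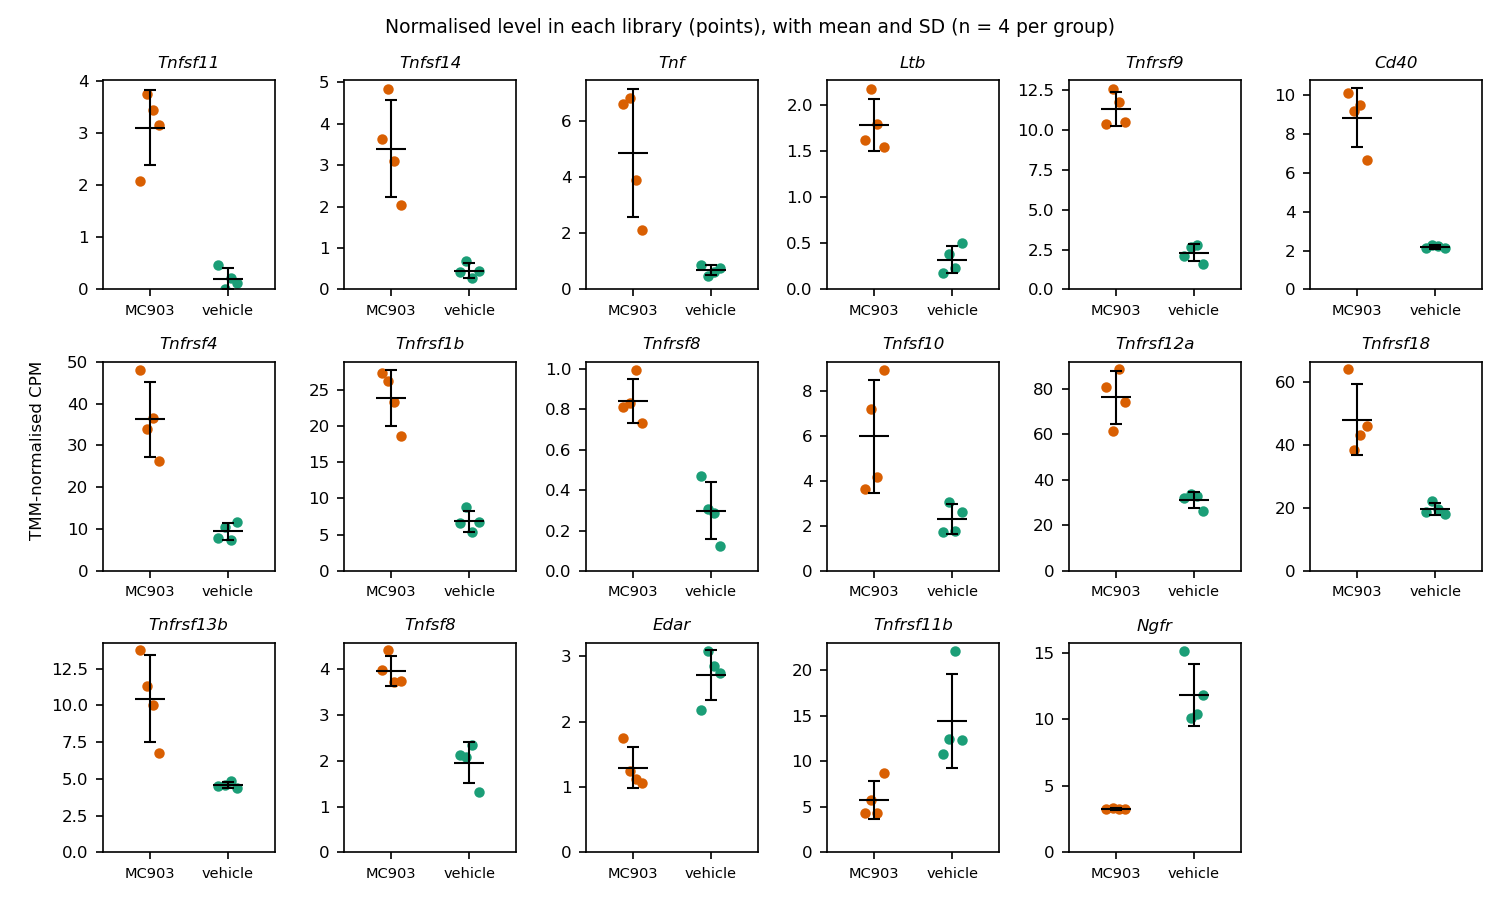
TMM-normalised CPM (vertical axis, from 0) in each MC903 library (orange) and vehicle library (green) for the 17 members that passed with a change of at least 2-fold; bars give the mean and SD (n = 4 per group). In all 17 panels the points of one group lie beyond those of the other.

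Of the members that sustain B cells and plasma cells, 4 could be tested and 1 rose, a share near the 21.3% of all genes called higher. Tnfrsf13b (TACI), a receptor of BAFF and APRIL, stood at 13.8, 11.3, 10.01 and 6.73 CPM in MC903 skin and 4.54, 4.61, 4.86 and 4.37 CPM in vehicle skin. The vehicle values were nearly equal and all treated values were higher (1.19 ± 0.21, adjusted p = 0.00099). Tnfsf13b, which encodes BAFF, had 1.42 ± 0.592 CPM in MC903 skin and 0.793 ± 0.085 CPM in vehicle skin. Its groups did not overlap, yet it did not pass (0.85 ± 0.32, adjusted p = 0.0509), and it passed with RLE size factors (0.0498) and without MC903 replicate 3 (0.0413). Tnfsf13 (APRIL) and Tnfrsf17 (BCMA) did not pass (0.38 ± 0.42 and 0.54 ± 0.37). Tnfrsf13c, the BAFF receptor, had 4, 2, 3 and 4 counts in MC903 skin and 11, 5, 5 and 5 in vehicle skin, a ratio of 0.586 (0.276 to 1.18). The 7 B cell and plasma cell markers summed to 5.57 to 9.45 CPM in MC903 skin and 2.06 to 4.53 CPM in vehicle skin, Pax5 was at 0 in both groups, and their part in the rise of Tnfrsf13b was not tested. Tnfsf12, Tnfsf13, Tnfsfm13 and the antisense Tnfsf13os overlap on chromosome 11, and reads they share could not be assigned with certainty, because the library protocol in the labels describes no strand marking. Tnfsfm13 had 4, 1, 2 and 3 counts in MC903 skin and 7, 4, 1 and 4 in vehicle skin.

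The RANK axis moved in opposite directions. Tnfsf11 encodes RANKL, the ligand of RANK, and Tnfrsf11b encodes osteoprotegerin, a secreted decoy that binds RANKL and TRAIL. Tnfsf11 had 31, 45, 52 and 39 counts in the MC903 libraries and 8, 0, 4 and 2 counts in the vehicle libraries, or 2.09, 3.75, 3.45 and 3.16 CPM in MC903 skin and 0.471, 0, 0.229 and 0.125 CPM in vehicle skin. Vehicle values lay at or near the floor in most libraries, and no treated library came close to them. The log2 fold change was 3.78 ± 0.48 (adjusted p = 0.000109), and it was 4.51 without vehicle replicate 1. Tnfrsf11b stood at 4.32, 5.75, 4.31 and 8.76 CPM in MC903 skin and 10.8, 12.4, 22.05 and 12.4 CPM in vehicle skin. Vehicle replicate 3 was far above the others of its group, and the groups did not overlap. The gene fell by 1.33 ± 0.28 on the log2 scale (adjusted p = 0.00332), and by 1.04 without that library (adjusted p = 0.00936). Tnfrsf11a, which encodes RANK, averaged 13.2 ± 1.47 CPM in MC903 skin and 18.2 ± 2.49 CPM in vehicle skin. It was lower by -0.46 ± 0.14 (adjusted p = 0.0235), and missed the threshold when vehicle replicate 1 (adjusted p = 0.0556) or 4 (0.0719) was left out, under library sizes alone (0.0583) and with the replicate number as a block (0.0553).

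Per length, Tnfsf11 reached 0.611, 0.822, 1.01 and 0.455 of the Tnfrsf11b signal in the MC903 libraries, against 0.0551, 0, 0.0131 and 0.0127 in the vehicle libraries. The means were 0.724 ± 0.242 and 0.0202 ± 0.024 (SD, n = 4 each, MC903 first). Since this ratio too was formed after the opposite calls of its genes were seen, its separation is no further result. Of 6 fibroblast markers 1, Dcn, was lower and 5 did not pass, and they summed to 6300 to 9260 CPM in MC903 skin and 9742 to 13994 CPM in vehicle skin, and their part in the fall of Tnfrsf11b was not tested. In the TWEAK branch, the ligand Tnfsf12 did not differ detectably (0.00 ± 0.20, adjusted p = 0.987). Its receptor Tnfrsf12a (FN14), which is induced in injured and growing tissue, stood at 80.6, 61.3, 88.9 and 74.3 CPM in MC903 skin and 32.05, 33.9, 32.8 and 26.1 CPM in vehicle skin, without overlap (1.29 ± 0.14, adjusted p = 4.2e-05). Of 6 keratinocyte markers 3 were higher (Krt14, Krt1 and Dsg3). Krt5, Krt10 and Trp63 did not pass, at log2 fold changes of 0.34, -0.27 and -0.34. The sum of all 6 was 12259 to 13556 CPM in MC903 skin, led by Krt14, and 5699 to 6832 CPM in vehicle skin. The part of keratinocytes in the rise of Tnfrsf12a was not tested.

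Among the death receptors and their ligands, the ligand Tnfsf10 rose, the receptor Tnfrsf21 fell, and Fas and Tnfrsf10b did not pass. Fas stood at 40.3, 35.0, 33.3 and 39.8 CPM in MC903 skin and 32.7, 37.0, 39.6 and 29.5 CPM in vehicle skin, with the groups overlapping (0.10 ± 0.13, adjusted p = 0.576). Fasl, its ligand on cytotoxic lymphocytes, fell below the filter with 14, 20, 6 and 10 counts in MC903 skin and 2, 1, 2 and 3 counts in vehicle skin. The ratio was 7.32 (3.44 to 17.9), and the counts did not overlap. Tnfsf10 (TRAIL) stood at 3.64, 7.17, 4.17 and 8.93 CPM in MC903 skin and 1.71, 3.07, 1.77 and 2.62 CPM in vehicle skin. The treated values were uneven but all above the vehicle values (1.38 ± 0.32, adjusted p = 0.00538). Its receptor Tnfrsf10b did not pass (0.16 ± 0.21), while Tnfrsf21 (DR6) stood at 31.8 ± 1.63 CPM in MC903 skin and 43.9 ± 3.49 CPM in vehicle skin (-0.46 ± 0.11, adjusted p = 0.00609). In mice, Tnfrsf22 and Tnfrsf23 encode decoy receptors for TRAIL. Tnfrsf23 rose to 12.4 ± 1.22 CPM in MC903 skin, against 7.26 ± 0.979 CPM in vehicle skin (0.77 ± 0.15, adjusted p = 0.00192), and the adjacent Tnfrsf26 to 28.8 ± 7.42 CPM, against 15.5 ± 1.26 CPM (0.90 ± 0.17, adjusted p = 0.0018). Tnfrsf22 passed narrowly (0.60 ± 0.21, adjusted p = 0.0416), and the call was lost in 9 of 18 alternatives, with adjusted p up to 0.134. These genes are close relatives and the handling of shared reads was not stated, so their single levels are uncertain.

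Of the ectodysplasin branch, Eda and Edar were lower and Eda2r did not pass, against 20.2% lower over all genes tested. Tnfrsf19, listed beside this branch, was also lower. Eda, the ligand needed for hair and gland formation, stood at 2.16, 2.83, 2.72 and 3.41 CPM in MC903 skin and 4.65, 4.61, 3.83 and 4.19 CPM in vehicle skin. The gap between groups was narrow (-0.64 ± 0.19, adjusted p = 0.0214), and it missed the threshold on leaving out vehicle replicate 1 (adjusted p = 0.0546), vehicle replicate 2 (0.0522) or MC903 replicate 3 (0.0588) and with the replicate block (0.0539). Its receptor Edar stood at 1.75, 1.25, 1.13 and 1.05 CPM in MC903 skin and 2.18, 3.07, 2.86 and 2.75 CPM in vehicle skin, without overlap (-1.05 ± 0.24, adjusted p = 0.00493). Tnfrsf19 (TROY), a receptor found in hair follicle progenitors, averaged 62.2 ± 9.12 CPM in MC903 skin and 94.2 ± 14.2 CPM in vehicle skin (-0.60 ± 0.15, adjusted p = 0.0078). The other ectodysplasin receptor, Eda2r, did not pass (0.14 ± 0.22). Of 8 hair follicle markers tested 6 were lower and 1, Hoxc13, higher, and the sum over the 9 listed was 28.3 to 70.8 CPM in MC903 skin and 39.2 to 135 CPM in vehicle skin, with vehicle replicate 4 the highest. Their part in the fall of Eda and Edar was not tested.

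Ngfr, the low-affinity neurotrophin receptor p75, showed the largest fall among the tested members. It stood at 3.24, 3.33, 3.25 and 3.25 CPM in MC903 skin and 15.1, 10.1, 10.4 and 11.8 CPM in vehicle skin. The treated values were nearly identical and lay far below the vehicle values (-1.86 ± 0.17, adjusted p = 1.43e-05). Schwann cells express Ngfr, and 7 of the 8 Schwann cell markers listed were also lower, with S100b at -1.54 on the log2 scale. Their sum was 523 to 614 CPM in MC903 skin and 1022 to 1401 CPM in vehicle skin, and their part in the fall of Ngfr was not tested.

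Expressed per kilobase of gene length (RPKM, from the TMM-adjusted CPM), Tnfrsf12a and Tnfrsf1a were the highest members in both groups, at 79.2 ± 12.1 and 78.9 ± 3.1 RPKM in MC903 skin and 32.4 ± 3.63 and 52.2 ± 2.09 RPKM in vehicle skin. Their means in MC903 skin differed by less than the SD. Tnfrsf18, Ltbr and Tnfrsf4 came next in MC903 skin, at 31.5 ± 7.42, 28.5 ± 8.28 and 26.5 ± 6.58 RPKM, and these neighbours did not differ beyond their spread. Ligands were low throughout: Tnfsf12 was highest at 4.67 RPKM in both groups, while Tnf reached 2.97 RPKM in MC903 skin and 0.415 RPKM in vehicle skin.

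Of 27 ligand and receptor pairs listed as binding, 22 had both genes tested. Both were higher in 5 pairs, Tnf with each of its receptors, Ltb with Ltbr, Tnfsf14 with Ltbr and Tnfsf8 with Tnfrsf8. Both were lower in 1 pair, Eda with Edar. The calls were opposite in 3 pairs, Tnfsf11 with Tnfrsf11a and with Tnfrsf11b, and Tnfsf10 with Tnfrsf11b. In 10 pairs 1 gene passed, among them Tnfsf9 with Tnfrsf9, and in 3 neither did. Pairs share genes, so they are not independent of each other. Tnfsf10 with the TRAIL decoys Tnfrsf22 and Tnfrsf23 was not listed, although these genes were each called higher, Tnfrsf22 narrowly. Every listed pair with both genes higher holds Tnf, Ltb, Tnfsf14 or Tnfrsf8. These genes, and Tnfsf11 in the opposite pairs with Tnfrsf11a and Tnfrsf11b, reached the filter's minimum in all MC903 but not all vehicle libraries. Their inclusion thus favoured a rise.

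**Figure D3:**
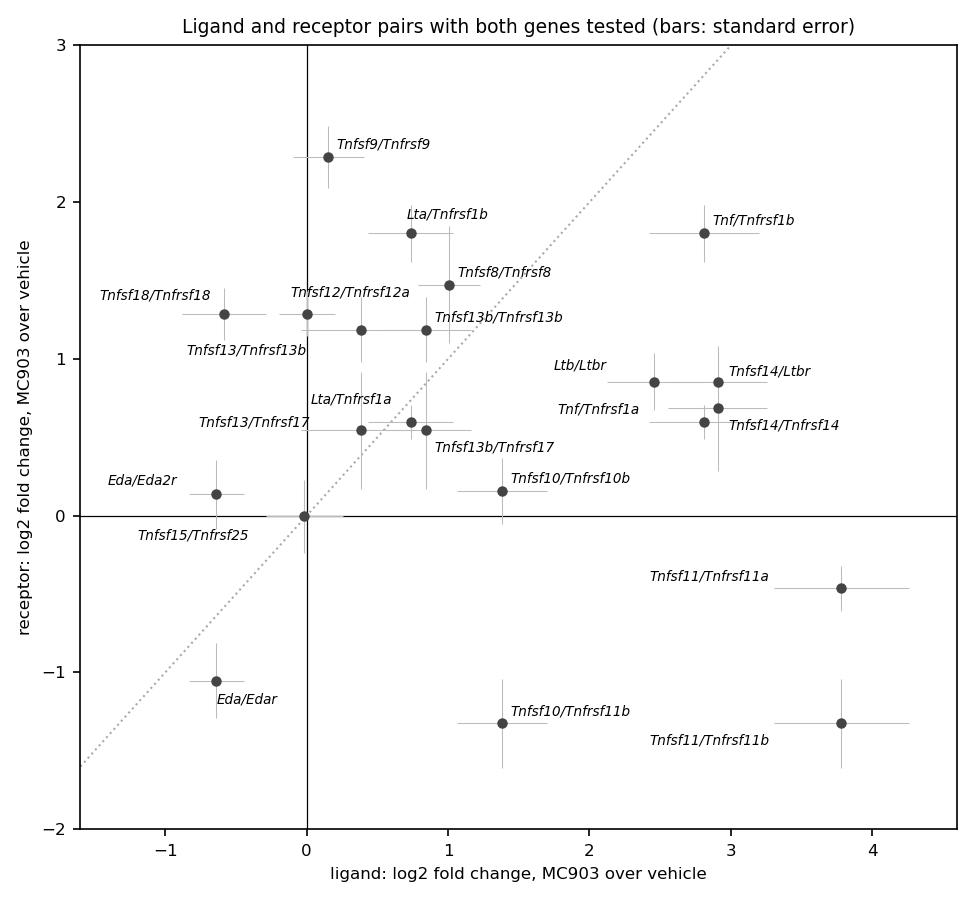
Log2 fold change (MC903 over vehicle) of the ligand (horizontal axis) against that of the receptor (vertical axis) for the 22 pairs with both genes tested, with standard errors; the dotted line marks equal changes. Tnfsf11 pairs lie at 3.78 on the ligand axis and below 0 on the receptor axis, whereas Tnfsf9 with Tnfrsf9 lies at 0.15 and 2.29.

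By position in mm10, 24 of the 47 members fell into 9 clusters with gaps of at most 100 kb. The cluster on chromosome 17 at 35194439 to 35205351 holds Ltb, Tnf and Lta, of which 2 rose. Tnfrsf4 and Tnfrsf18 lie within 15.1 kb on chromosome 4 (156013843 to 156028895) and both rose. Tnfrsf1b and Tnfrsf8 (chromosome 4, 145213463 to 145315164), Cd27, Ltbr and Tnfrsf1a (chromosome 6, 125232622 to 125362484) and Tnfrsf26, Tnfrsf22 and Tnfrsf23 (chromosome 7, 143607685 to 143685872) were likewise higher throughout, with the exceptions under alternatives given above for Cd27, Tnfrsf1a and Tnfrsf22. Tnfsf9, Cd70 and Tnfsf14 lie together on chromosome 17 (57105385 to 57194189), and only Tnfsf14 of them passed. In the cluster of Tnfsf15 and Tnfsf8 only Tnfsf8 passed. No member passed in the clusters of Tnfsf4 with Tnfsf18 and of Tnfsf12 with Tnfsf13, Tnfsfm13 and Tnfsf13os. None of the 9 clusters held a member called lower, against 17.1% of tested members and 20.2% of all genes tested. Higher calls made up 48.8% of tested members and 21.3% of all genes tested. A link between position and direction was not tested. Outside the clusters, Tnfsf11 lies on chromosome 14 (78277445 to 78308043), Tnfrsf9 on chromosome 4 (150914562 to 150946102), Tnfrsf11b on chromosome 15 (54250619 to 54278484) and Ngfr on chromosome 11 (95568818 to 95587735).

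Promoter sequence was available for 36 members as the 250 bases upstream of each RefSeq start (GRCm38.p6), and 3 motifs were searched on both strands. A match to the NF-kB site consensus was present for 4 members (Ltb, Tnfrsf25, Tnfrsf8 and Tnfrsf9), or 11.1%, against 8.23% of 27025 genes. The letters TATAAA were present for 7 members, or 19.4%, against 14.3% of genes. The direct-repeat consensus of the vitamin D receptor (DR3) matched no member and 12 of 27025 genes (0.0444%). At so low a share, the lack of a match among 36 members says nothing about them. Sequence beyond the 250 bases was not searched. The NF-kB and TATAAA shares among members were near those of all genes. The upstream sequences of 3 ligands that rose are shown because each holds a match, which is in capitals. They are given 5′ to 3′ in the direction of the gene, and for Ltb end before the first exon of the count tables, which starts upstream of the RefSeq start. They were chosen after the values were seen.
Tnf, chr17:35202008-35202257, minus strand, with TATAAA 29 to 24 bases upstream of the start: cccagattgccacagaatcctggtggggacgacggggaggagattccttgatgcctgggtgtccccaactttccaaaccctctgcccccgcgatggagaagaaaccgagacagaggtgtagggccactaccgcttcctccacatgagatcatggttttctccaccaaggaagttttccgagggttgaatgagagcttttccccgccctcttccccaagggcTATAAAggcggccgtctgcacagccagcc
Ltb, chr17:35194257-35194438, plus strand, with an NF-kB match on the opposite strand 87 to 78 bases upstream of the RefSeq start: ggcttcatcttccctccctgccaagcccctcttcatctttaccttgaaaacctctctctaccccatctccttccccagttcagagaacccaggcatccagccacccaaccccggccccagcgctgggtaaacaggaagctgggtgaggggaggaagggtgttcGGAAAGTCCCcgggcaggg
Tnfsf11, chr14:78308044-78308293, minus strand, with TATAAA on the opposite strand 32 to 27 bases upstream of the start: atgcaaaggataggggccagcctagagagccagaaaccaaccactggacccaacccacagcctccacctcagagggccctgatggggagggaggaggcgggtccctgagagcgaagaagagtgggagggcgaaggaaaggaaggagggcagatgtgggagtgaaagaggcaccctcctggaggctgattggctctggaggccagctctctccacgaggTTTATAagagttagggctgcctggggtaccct

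Downstream of the receptors, 44 signalling genes were listed and all were tested. In MC903 skin 21 were higher, 1 was lower and 22 did not pass, against 21.3% higher and 20.2% lower over all genes tested. The number higher was 11 with library sizes alone. The NF-kB proteins and their inhibitors were higher in 7 of 9 cases, and the death-domain adaptors and cell death genes in 6 of 8. With library sizes alone these counts were 4 of 9 and 4 of 8, and the calls of Rel and Ripk1 were lost in 8 and 12 of 18 alternatives. The TRAF adaptors were higher in 1 of 6, and the kinases and their partners in 2 of 10. The ubiquitin ligases and deubiquitinases were higher in 4 of 10. That count ran from 0 with library sizes alone to 5 without MC903 replicate 4. Bcl3, an inhibitor-like coactivator of NF-kB, stood at 7.7 ± 1.28 CPM in MC903 skin and 1.42 ± 0.378 CPM in vehicle skin (2.43 ± 0.24, adjusted p = 1.79e-05). Mlkl, the executor of necroptosis, stood at 23.1 ± 4.32 and 5.66 ± 0.953 CPM in MC903 and vehicle skin (2.03 ± 0.18, adjusted p = 1.01e-05). Its activating kinase Ripk3 rose by 1.41 ± 0.18, and the adaptor Traf1, itself an NF-kB target, by 1.39 ± 0.19. Nfkbia, the inhibitor IkB alpha, was at 259 ± 36.4 CPM in MC903 skin and 170 ± 22.1 CPM in vehicle skin (0.61 ± 0.15, adjusted p = 0.0087), and the call was lost with library sizes alone (0.105). Tnfaip3 (A20), which removes ubiquitin from the receptor complexes, overlapped between the groups (0.71 ± 0.22, adjusted p = 0.0219), and did not pass in 5 of 18 alternatives, 4 of them leaving out a library (adjusted p up to 0.0697). Rela, the main activating NF-kB subunit, did not pass (0.06 ± 0.14, adjusted p = 0.771). Adam17, the protease that sheds TNF and its receptors, was higher by 0.47 ± 0.13 (adjusted p = 0.0139), a call lost with library sizes alone (0.159). Tab1, a partner of the kinase TAK1, was the gene called lower (-0.39 ± 0.14, adjusted p = 0.0492), and the call was lost in 12 of 18 alternatives, with adjusted p up to 0.138.

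**Figure D4:**
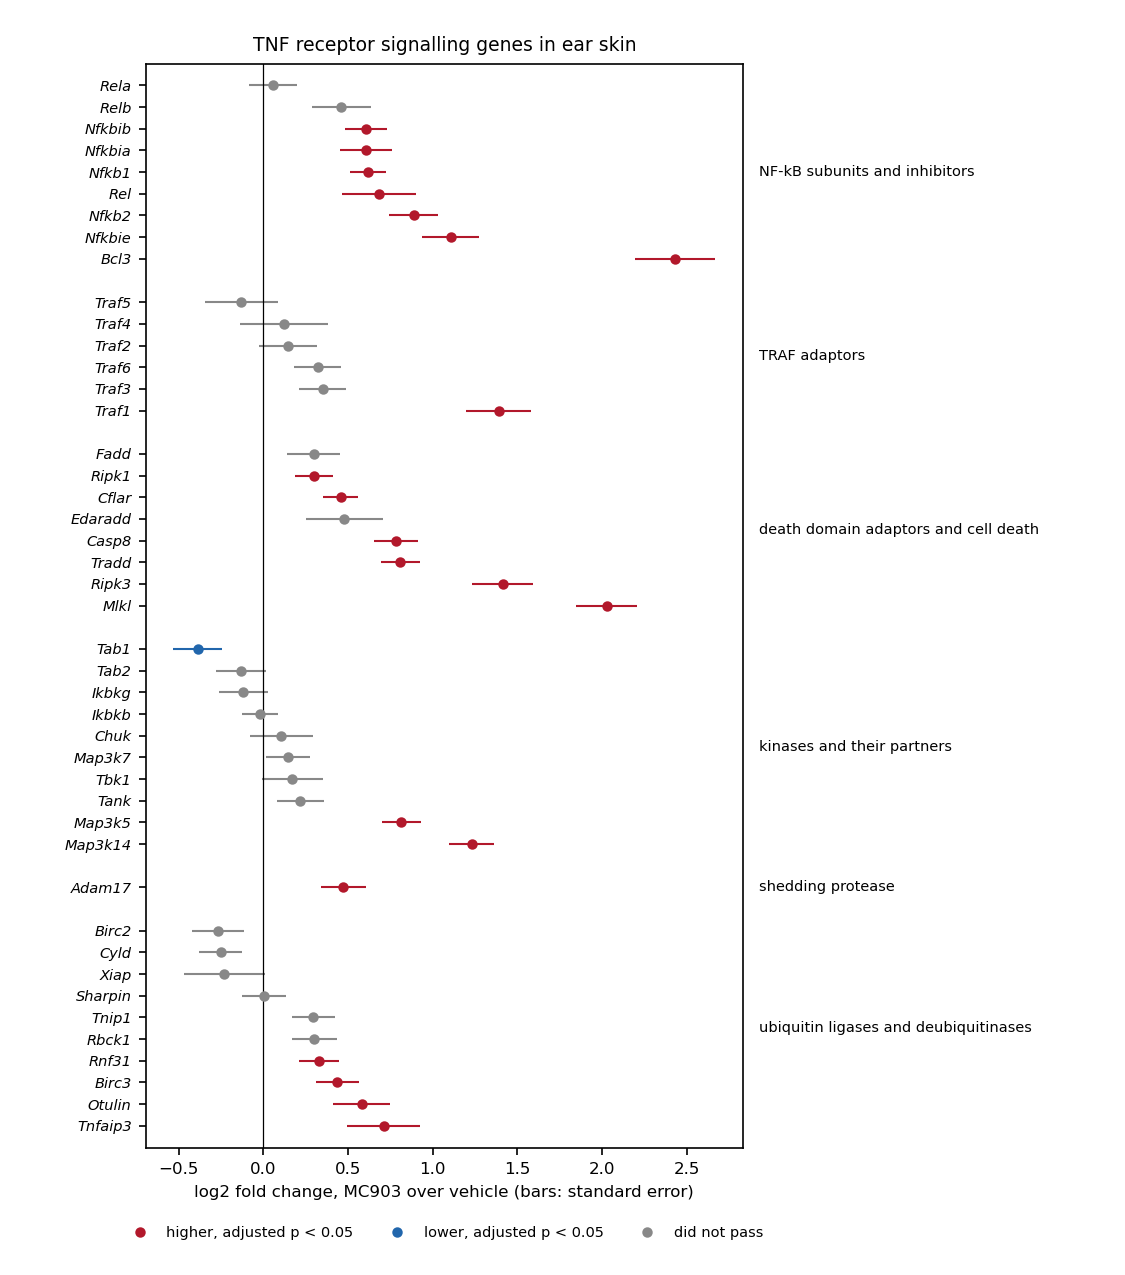
Log2 fold change (MC903 over vehicle, horizontal axis, with standard error) of the 44 TNF receptor signalling genes, grouped by role at the right; red marks higher, blue lower and grey not called at an adjusted p of 0.05. Bcl3 at 2.43 and Mlkl at 2.03 lie farthest right, and Tab1 is the single blue point.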

How the data were processed

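Reads of 8 libraries, 4 per group, were counted per Ensembl gene by the authors, with 1 table of whole-number counts per library and, per the file headers, CPM and RPKM beside them. The submitters' processing notes name STAR 2.0.4b, Subread and featureCounts 1.4.5 and the build mm10. The sources used here do not state the annotation release, strand setting or treatment of multi-mapping reads. Libraries were made from ribosomal RNA-depleted total RNA with random primers, per the labels' protocols. The deposited CPM and RPKM values were recomputed from the counts to within 2.33e-10 and 1.75e-10 and used only for that check. Symbols were matched for 40254 of 41388 identifiers, including all members. Counts were filtered with filterByExpr (minimum count 10), scaled with TMM and tested in edgeR 4.0.16 under R 4.3.3 by its quasi-likelihood test, with no covariate beside group and Benjamini-Hochberg adjustment. The standard error is the log2 fold change over the square root of F. The fit was tested on simulated data. DESeq2 1.42.0 and limma-voom (limma 3.58.1) were alternatives, beside other scalings and filters, a robust dispersion fit, omission of mitochondrial and ribosomal RNA genes, a block for replicate number and leaving out each library. Exact intervals used scipy 1.17.1.

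Members and lists were chosen with earlier results of these data known. Values per library are given for members that passed with at least a 2-fold change, for 8 preset members, and for untested members with at least 10 counts. For signalling genes the rule named the 4 largest rises, up to 4 falls and 4 preset genes. Other names were added after their values were seen. A search for a library deposited more than once found no such pair within a group (chi-square per degree of freedom at least 10.1). Depth limits members near 3 counts per library. Reads carry no molecular identifiers, so PCR copies are counted as if independent.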

Additional observations from a re-analysis of the deposited data

Results flagged for a closer look

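In groups of 4 libraries, a value was set aside for a closer look where its gap to the nearest other library took up most of the group's range, beyond Dixon's critical value at 95%. This was met in 10 of 112 groups examined, and chance alone gives about 1 in 20. In MC903 skin, single libraries stood apart for Ltbr (96.1 CPM in replicate 1, others 55.3 to 59.97), Tnfrsf11a (11.0 CPM in replicate 1, others 13.75 to 14.1), Cd40lg (1.08 CPM in replicate 2, others 0.27 to 0.406), Tnfrsf23 (10.6 CPM in replicate 2, others 12.9 to 13.2), Tnfrsf22 (4.06 CPM in replicate 4, others 5.58 to 5.8) and Tab1 (14.8 CPM in replicate 1, others 10.9 to 11.2). For Ngfr the value set aside, 3.33 CPM in replicate 2, differed little from the others at 3.24 to 3.25 CPM. In vehicle skin, Tnfrsf11b (22.05 CPM, others 10.8 to 12.4) and Adam17 (77.6 CPM, others 64.7 to 66.3) stood high in replicate 3, and Tnfrsf25 (2.36 CPM, others 1.81 to 1.89) in replicate 1.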

How the results depend on the processing

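Over 18 alternatives, tested members kept their side of the threshold in 712 of 734 cases and signalling genes in 726 of 792, and no gene called at first changed sign. Among genes that were not called, 5 members and 6 signalling genes changed sign in at least 1 alternative. The number of members higher ran from 18 (library sizes alone) to 21, and lower from 5 to 7. Without 1 library the members higher were 19 to 21 and lower 5 to 7, and the signalling genes higher 16 to 23 and lower 0 to 1. Signalling genes higher fell to 11 with library sizes alone, a setting without the TMM factors, among them 0.775 for vehicle replicate 2. They numbered 17 without vehicle replicate 2, as without vehicle replicate 3 or 4. The cause of the fall to 11 was not tested. Signalling genes lower numbered 0 with library sizes alone, RLE factors, no filter, DESeq2 and the replicate block, and 2 with upper quartile factors, and the cause was not tested. The share of calls that were higher over all genes was 51.2%, against 44.0% under library sizes alone and 43.1% under upper quartile factors, whose median log2 fold changes were -0.11 each. With the replicate block 20 members were higher, 5 lower and 19 signalling genes higher. Same-numbered libraries did not deviate together (correlations 0.06, -0.14, -0.12 and -0.20), so the block pairs by number only. Lta, Tnfrsf8, Tnfsf13 and Tnfsf13b had no value under the stricter filter. Members with few counts, such as Tnfsf4, Cd70 and Tnfrsf13c, are limited by depth.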

Other observations

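Among the 14 members that rose at least 2-fold, MC903 replicate 4 was the lowest treated library for 8 (Cd40, Ltb, Tnf, Tnfrsf13b, Tnfrsf1b, Tnfrsf4, Tnfrsf8 and Tnfsf14), while Tnfsf10 was highest there at 8.93 CPM. The same library had the lowest sums of neutrophil markers (402 CPM, mostly S100a8 and S100a9) and of macrophage and monocyte markers (1924 CPM) of the treated group. Its sums of T cell markers (122 CPM) and hair follicle markers (28.3 CPM) were also the lowest. The sums of dendritic and Langerhans cell, natural killer cell, B cell and mast cell lists were lowest in MC903 replicate 3. The relation between these values was not tested.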
